A study of Mus musculus with 12 samples.

Results

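The genes described here are 57 genes for enzymes that add or remove methyl groups on histones, together with core subunits of their complexes, chosen by gene symbol from the count tables of unstimulated and LPS-stimulated cells. All 57 were found in both tables, among 16699 genes that the tables share, and all 57 passed the filter on low counts in each comparison. The cells were J774A.1, a mouse macrophage line. WT lines received a Cas9 and GFP vector without a guide, and ACAT1 KO lines received the same vector with a guide to the fourth exon of Acat1, which encodes a mitochondrial thiolase that makes and splits acetoacetyl-CoA. Both kinds of line were sorted for GFP and plated at more than 1 cell per well, since some cells may not survive. The study describes the populations grown from them as clonal, which was not checked here. Each genotype was sequenced as 3 libraries without stimulation and 3 libraries after 2 hours with LPS at 100 ng/ml, which gave 12 libraries in 4 groups. The study calls the replicates of a genotype different lines for the basal state and mice in another place, while the labels give the J774A.1 line, so whether the libraries of a group are separate lines is not settled here.

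Histone methylation is written by methyltransferases, mostly of the SET domain family, which take the methyl group from S-adenosylmethionine. Its meaning depends on the residue: methylation of H3K4 marks promoters and enhancers, H3K36 and H3K79 methylation marks transcribed genes, and methylation of H3K9 and H3K27 marks silent chromatin. It is removed by flavin-dependent demethylases of the KDM1 family and by JmjC demethylases, which use iron, oxygen and 2-oxoglutarate. In macrophages, the H3K27 demethylase Kdm6b is known as a gene induced by LPS.

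Libraries held 56948593 to 167280149 counts. The lowest count of a member in a library was 172, for Kdm8, and the highest was 36545, for Kdm5c. Levels are given as CPM, a gene's share of a library's counts scaled to a common library size, after TMM normalization over the 12 libraries. Acat1 stood at 80.8 to 108 CPM in unstimulated WT and 25.5 to 28.9 CPM in unstimulated ACAT1 KO libraries, and at 65.0 to 95.4 CPM in WT and 18.5 to 19.9 CPM in ACAT1 KO libraries after LPS, lower in all ACAT1 KO libraries, as their labels say. All 9 macrophage markers were detected, and all 5 LPS response genes that could be tested were higher after LPS in both genotypes. Some differed between genotypes by edgeR at an adjusted p under 0.05. Of the 9 macrophage markers, 2 were lower in ACAT1 KO cells without stimulation, 2 were higher and 2 lower after LPS, and 1 passed for the interaction. Of 6 LPS response genes tested among the LPS libraries, 3 were higher in ACAT1 KO cells and 0 lower. Of 4 markers each of other cell types, 1 T cell, 1 B cell and 1 fibroblast marker could be tested and none of the epithelial ones. Cd4 (T cell) and Cd79a (B cell) stayed under 1 CPM in all libraries, though Cd79a rose after LPS by 3.29 in WT and 1.46 in ACAT1 KO cells on the log2 scale. The fibroblast marker Pdgfra stood at 1.14 to 1.67 CPM without stimulation, 5.53 to 6.48 CPM in WT and 11.3 to 12.95 CPM in ACAT1 KO libraries after LPS, and its response differed between genotypes (interaction 1.22, SE 0.19, adjusted p = 0.0383), while the defining fibroblast gene Col1a2 was in neither table. The part of these markers in the results was not tested. The unstimulated libraries WT 1, WT 2 and ACAT1 KO 2 stood apart: 0.0496% to 0.0733% of their counts fell on noncoding genes in exons of the opposite strand, against 0.0193% to 0.0278% in the other libraries.

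Per kilobase of exon, so that genes could be compared, the highest members in unstimulated WT cells were the main arginine methyltransferase Prmt1 at 42.7 CPM per kb, the PRC2 scaffold Suz12 at 41.4 and the H3K9 methyltransferase Ehmt2 at 38.9. The lowest was the H3K4 demethylase Kdm5b, at 0.308 CPM per kb. Prmt1 ranged from 139 to 158 CPM over the 12 libraries and passed no test in any comparison.

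Which of these genes respond to LPS was asked first in WT cells. After LPS, 31 of the 57 members rose, 15 fell and 11 did not pass the test at an adjusted p of 0.05 (edgeR quasi-likelihood, Benjamini-Hochberg over all genes tested), while of all 16535 genes tested 29.3% rose and 28% fell. In ACAT1 KO cells 28 rose, 17 fell and 12 did not pass, against 29.5% and 31.2% of all genes. The median log2 fold change of the members was 0.32 in WT and 0.23 in ACAT1 KO cells, beside -0.02 and -0.03 over all genes. Both comparisons put 3 libraries against 3 and were read from 1 fit of the 12 libraries. With upper quartile normalization the split became 25 higher and 22 lower in WT and 20 higher and 21 lower in ACAT1 KO cells, against 21.9% and 40.4%, and 23.7% and 39.7%, of all genes, while the median of all genes moved to -0.23 and -0.17 and the members stayed 0.34 and 0.26 above it. With offsets for gene length and GC content the split was 26 higher and 20 lower in each genotype, against 27.6% and 29.2% of all genes in WT and 27.3% and 32.4% in ACAT1 KO cells, and the members' median lay 0.15 and 0.11 above that of all genes. Without the 3 unstimulated libraries that stood apart, the members' median was 0.33 in WT and 0.21 in ACAT1 KO cells, beside -0.0065 and 0.002 over all genes. That fit leaves WT 3 as the sole unstimulated WT library, which is assumed to vary like the other groups.

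**Figure D1:**
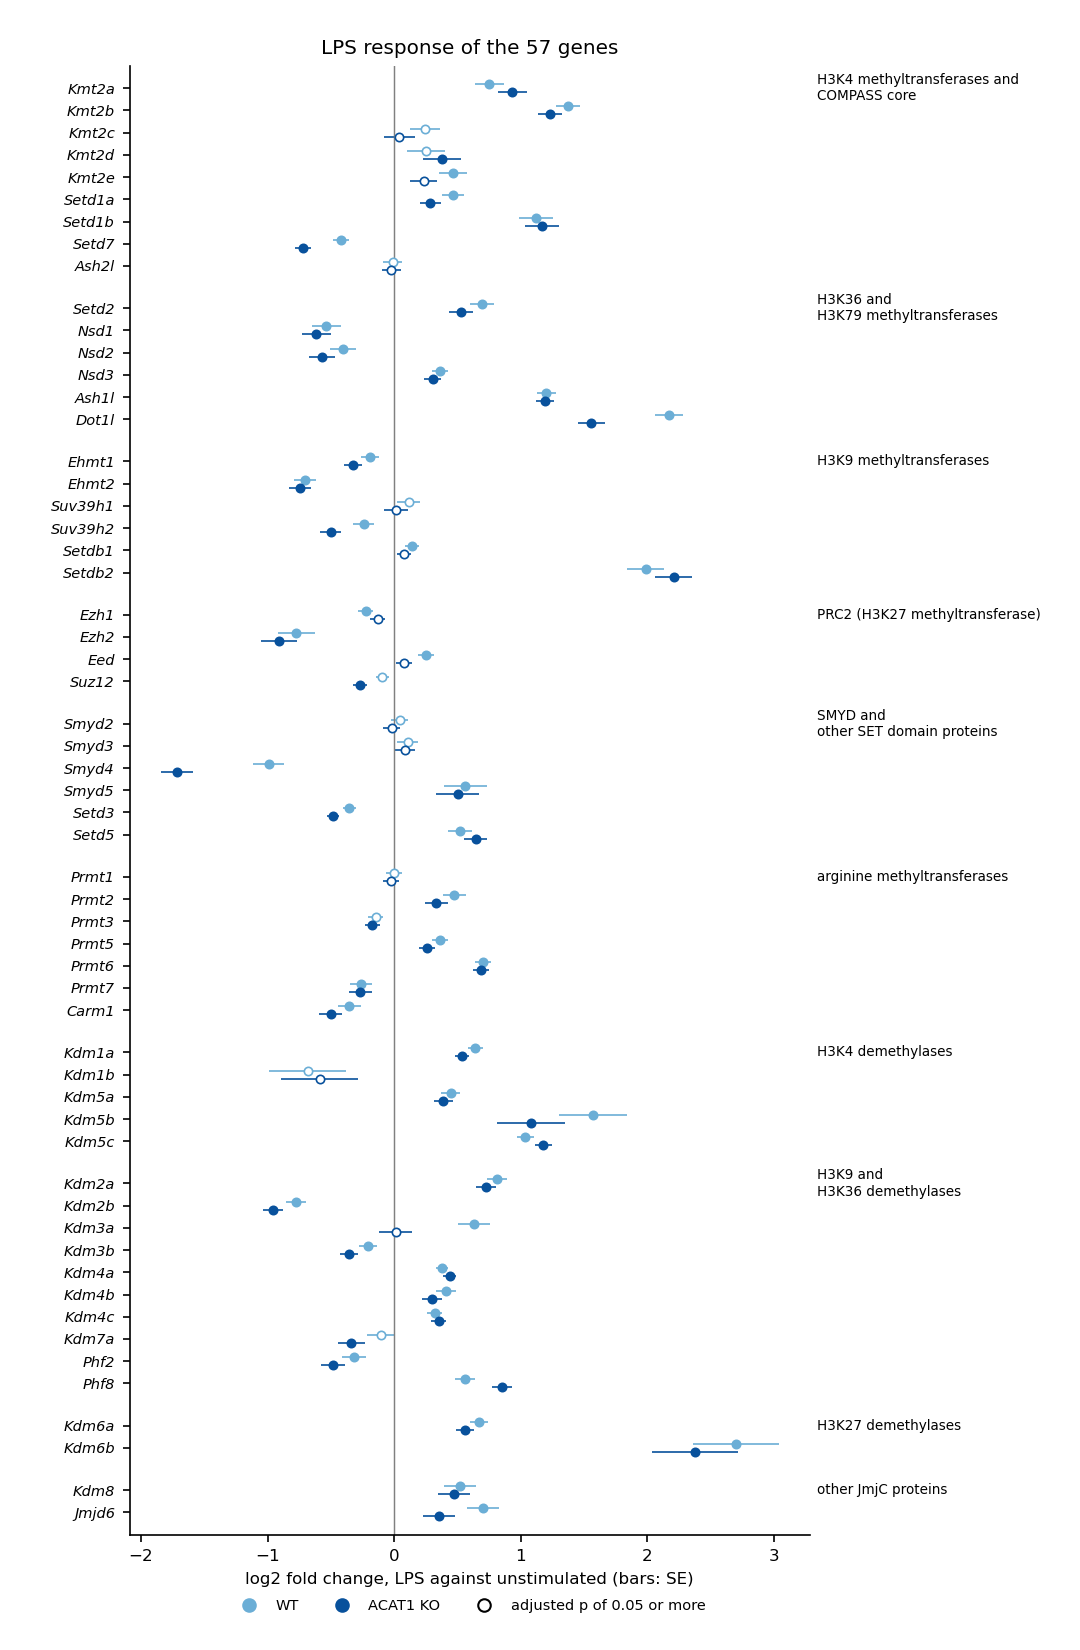
Log2 fold change after LPS (x axis) of each of the 57 genes (y axis, grouped by role) in WT and ACAT1 KO cells, with bars for the standard error, and filled points where the edgeR adjusted p was under 0.05. Kdm6b, Dot1l and Setdb2 lie farthest to the right in both genotypes, and Smyd4 farthest to the left.

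The H3K27 demethylases rose after LPS, and the opposing methyltransferase complex PRC2 did not rise as a whole. Kdm6b (ENSMUSG00000018476, chr11:69398508-69413675, minus strand), the inducible H3K27 demethylase also called JMJD3, stood at 26.7, 14.1 and 13.2 CPM in the 3 unstimulated WT libraries, at 145, 98.7 and 105 CPM in WT after LPS, at 25.5, 12.7 and 11.4 CPM in unstimulated ACAT1 KO and at 98.6, 87.1 and 72.2 CPM in ACAT1 KO after LPS. All 6 LPS libraries lay above all 6 unstimulated ones. The log2 fold change was 2.70 (SE 0.34, adjusted p = 2.86e-05), or 6.49-fold, in WT and 2.38 (SE 0.34, adjusted p = 6.58e-05) in ACAT1 KO cells, the largest rise among the members in each genotype. Kdm6a, its X-linked paralog, rose by 0.67 (SE 0.072) in WT and 0.56 (SE 0.072) in ACAT1 KO cells on the log2 scale.

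Of the 4 PRC2 genes, Ezh2 and Ezh1 fell in WT, Eed rose and Suz12 did not pass. Ezh2, the main catalytic subunit, stood at 84.7, 103 and 102 CPM in unstimulated WT and 46.4, 66.7 and 56.0 CPM in WT after LPS. In ACAT1 KO cells it went from 82.2, 95.2 and 102 CPM to 41.3, 52.4 and 55.1 CPM. The LPS and unstimulated libraries did not overlap in either genotype, and Ezh2 changed by -0.77 (SE 0.14) and -0.91 (SE 0.14) log2 units, with adjusted p = 0.000616 and 0.000166. In ACAT1 KO cells Suz12 fell by 0.27 on the log2 scale, while Eed, the subunit that binds methylated H3K27, had 0.08 and Ezh1, the paralog of Ezh2, had -0.13, neither past the test.

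Among the methyltransferases for H3K36 and H3K79, 4 of 6 rose and 2 fell in each genotype. Dot1l (ENSMUSG00000061589, chr10:80755206-80795461, plus strand), the H3K79 methyltransferase, which has no SET domain, stood at 32.9, 39.4 and 28.0 CPM in unstimulated WT and at 138, 163 and 149 CPM in WT after LPS. In ACAT1 KO cells it stood at 31.9, 35.3 and 32.5 CPM without stimulation and at 96.2, 101 and 95.5 CPM after LPS. The genotypes overlapped without stimulation, and after LPS each WT library lay above each ACAT1 KO library. The rise was 4.51-fold in WT (log2 fold change 2.17, SE 0.11, adjusted p = 1.53e-08) and 2.94-fold in ACAT1 KO cells (1.56, SE 0.11, adjusted p = 1.56e-07).

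Ash1l (ENSMUSG00000028053, chr3:88950622-89079375, plus strand), a trithorax protein that methylates H3K36, stood at 65.0, 69.5 and 56.5 CPM in WT and 52.3, 58.4 and 55.3 CPM in ACAT1 KO without stimulation, and at 148, 146 and 144 CPM in WT and 131, 124 and 124 CPM in ACAT1 KO after LPS. All LPS libraries were above all unstimulated ones, with a log2 fold change of 1.20 (SE 0.074, adjusted p = 6.66e-08) in WT and 1.19 (SE 0.074, adjusted p = 5.87e-08) in ACAT1 KO cells. Setd2, which trimethylates H3K36, rose by 0.69 and 0.53 and Nsd3 by 0.36 and 0.30 on the log2 scale. The rise of Nsd3 did not pass in either genotype with upper quartile normalization or with length and GC offsets. The other two NSD genes, which dimethylate H3K36, went the other way: Nsd1 changed by -0.54 and -0.61 and Nsd2 by -0.40 and -0.57 in WT and ACAT1 KO cells.

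Of the 9 genes for H3K4 methyltransferases and their core subunit Ash2l, 5 rose and 1 fell in each genotype. Kmt2a, Kmt2b, Setd1a and Setd1b rose in both, Kmt2e in WT and Kmt2d in ACAT1 KO cells, where the Kmt2d value of 0.38 (adjusted p = 0.0461) passed in 3 of 12 fits with a library left out. Kmt2b (ENSMUSG00000006307, chr7:30568858-30588726, minus strand), an MLL family H3K4 methyltransferase, stood at 61.4, 69.3 and 55.2 CPM in unstimulated WT, 51.9, 58.5 and 61.3 CPM in unstimulated ACAT1 KO, 148, 169 and 162 CPM in WT after LPS and 128, 145 and 129 CPM in ACAT1 KO after LPS. The 2 states did not overlap, and the log2 fold change was 1.37 (SE 0.095, adjusted p = 1.85e-07) in WT and 1.23 (SE 0.095, adjusted p = 3.76e-07) in ACAT1 KO cells. Setd1b, a SET1 family enzyme, rose by 1.12 and 1.17 and Kmt2a by 0.75 and 0.93 on the log2 scale. Ash2l, the subunit that these complexes share, had -0.01 in WT and -0.02 in ACAT1 KO cells.

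The member of this group that fell was Setd7 (ENSMUSG00000037111, chr3:51515319-51560879, minus strand), a monomethyltransferase of H3K4 and of many other proteins. It stood at 76.6, 68.8 and 66.5 CPM in unstimulated WT and 54.0, 51.4 and 52.8 CPM in WT after LPS, and at 71.1, 76.8 and 68.5 CPM in unstimulated ACAT1 KO and 45.1, 43.1 and 43.5 CPM in ACAT1 KO after LPS. The genotypes overlapped without stimulation and did not overlap after LPS. Its log2 fold change was -0.42 (SE 0.064, adjusted p = 0.000129) in WT and -0.72 (SE 0.064, adjusted p = 1.35e-06) in ACAT1 KO cells.

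H3K4 demethylases moved in the same direction as most H3K4 methyltransferases: 4 of 5 rose in each genotype, and Kdm1b, with -0.68 and -0.59, did not pass. Without stimulation Kdm1b stood at 20.8, 24.5 and 12.45 CPM in WT and 12.6, 27.8 and 11.8 CPM in ACAT1 KO. The high values were those of the 3 libraries that stood apart. After LPS it stood at 10.8 to 12.75 CPM in all libraries, close to the other unstimulated ones. The rise of Kdm5a did not pass in either genotype with length and GC offsets. Kdm5c (ENSMUSG00000025332, chrX:152233020-152274535, plus strand), an X-linked demethylase of trimethylated H3K4, stood at 119, 128 and 107 CPM in WT and 90.7, 96.9 and 96.9 CPM in ACAT1 KO without stimulation, and at 248, 237 and 242 CPM in WT and 211, 219.7 and 213 CPM in ACAT1 KO after LPS. Within each state the ACAT1 KO libraries lay below the WT libraries, and within each genotype all LPS libraries lay above all unstimulated ones. The log2 fold change after LPS was 1.04 (SE 0.066, adjusted p = 9.6e-08) in WT and 1.18 (SE 0.067, adjusted p = 2.98e-08) in ACAT1 KO cells.

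Kdm5b, its paralog on chromosome 1, rose from 5.86, 5.19 and 4.27 CPM to 21.1, 11.7 and 12.6 CPM in WT and from 4.76, 2.87 and 3.26 CPM to 9.03, 5.60 and 8.47 CPM in ACAT1 KO cells. Within each genotype the states did not overlap, though WT 1 after LPS lay well above the other two. The log2 fold changes were 1.57 (SE 0.27) and 1.08 (SE 0.27). Kdm1a (ENSMUSG00000036940, chr4:136550540-136602723, minus strand), the flavin-dependent demethylase LSD1, rose from 82.2, 82.2 and 89.1 CPM to 137, 130.2 and 128 CPM in WT and from 79.2, 71.0 and 76.2 CPM to 110.5, 110.5 and 107 CPM in ACAT1 KO cells, or by 0.64 (SE 0.057) and 0.53 (SE 0.057) on the log2 scale.

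Of the 6 H3K9 methyltransferases, Setdb2 rose, Ehmt1, Ehmt2 and Suv39h2 fell in both genotypes, and Suv39h1 did not pass in either. In WT, Ehmt1 passed in 8 and Suv39h2 in 9 of 12 fits with a library left out. Neither passed there with a term for the 3 unstimulated libraries that stood apart. Setdb1 had 0.14 in WT, where it passed (adjusted p = 0.045), and 0.08 in ACAT1 KO cells, passing in WT in 2 of 12 fits with a library left out, and its sign there turned to -0.07 with upper quartile normalization. Setdb2 (ENSMUSG00000071350, chr14:59402009-59440884, minus strand), known as an interferon-induced H3K9 methyltransferase, stood at 16.7, 17.7 and 16.4 CPM in WT and 12.6, 14.0 and 14.1 CPM in ACAT1 KO without stimulation, and at 52.2, 79.5 and 69.3 CPM in WT and 67.0, 69.1 and 51.7 CPM in ACAT1 KO after LPS. All LPS libraries were higher, and after LPS the genotypes overlapped. The rise was 3.96-fold in WT (log2 fold change 1.99, SE 0.15, adjusted p = 3.14e-07) and 4.62-fold in ACAT1 KO cells (2.21, SE 0.15, adjusted p = 1.18e-07).

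Ehmt2 (ENSMUSG00000013787, chr17:34898469-34914052, plus strand), which encodes the H3K9 dimethyltransferase G9a, stood at 216, 229 and 195 CPM in WT and 196, 230.3 and 226 CPM in ACAT1 KO without stimulation, and at 126, 138 and 129 CPM in WT and 119.7, 139 and 132 CPM in ACAT1 KO after LPS. The genotypes overlapped in both states and the states did not overlap. It changed by -0.70 (SE 0.085, adjusted p = 1.91e-05) in WT and -0.74 (SE 0.085, adjusted p = 1.1e-05) in ACAT1 KO cells on the log2 scale.

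Of the 10 demethylases of H3K9, H3K36 and related marks, 6 rose and 3 fell in WT, and 5 rose and 4 fell in ACAT1 KO cells. Kdm3a passed in WT and Kdm7a, with -0.34, in ACAT1 KO cells. Kdm2a, a CpG-binding H3K36 demethylase, rose by 0.81 and 0.73 on the log2 scale. Its paralog Kdm2b (ENSMUSG00000029475, chr5:122870665-122989823, minus strand), which also recruits Polycomb complexes to CpG islands, stood at 37.0, 36.5 and 34.6 CPM in WT and 32.4, 38.4 and 34.0 CPM in ACAT1 KO without stimulation, and at 21.2, 20.8 and 21.2 CPM in WT and 16.7, 19.8 and 17.5 CPM in ACAT1 KO after LPS. Every LPS library lay below every unstimulated library, with a log2 fold change of -0.77 (SE 0.079, adjusted p = 4.47e-06) in WT and -0.96 (SE 0.079, adjusted p = 6.55e-07) in ACAT1 KO cells. Kdm4a, Kdm4b and Kdm4c, which act on trimethylated H3K9 and H3K36, rose by 0.32 to 0.41 in WT and 0.30 to 0.44 in ACAT1 KO cells. The PHD finger demethylase Phf8 rose by 0.56 and 0.85, whereas its relative Phf2 changed by -0.32 and -0.48. In WT the falls of Phf2 and Kdm3b did not pass with the term for the unstimulated libraries that stood apart.

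In the remaining groups, Smyd4 (ENSMUSG00000018809, chr11:75348433-75405705, plus strand), a SET and MYND domain protein, had the largest fall. It stood at 7.89, 7.11 and 8.94 CPM in WT and 8.60, 9.42 and 8.98 CPM in ACAT1 KO without stimulation, and at 4.14, 3.92 and 3.99 CPM in WT and 2.43, 2.52 and 3.25 CPM in ACAT1 KO after LPS. The log2 fold change was -0.99 (SE 0.12, adjusted p = 2.75e-05) in WT and -1.72 (SE 0.13, adjusted p = 2.69e-07) in ACAT1 KO cells, with no overlap between states. Setd3 (ENSMUSG00000056770, chr12:108106431-108179314, minus strand), now known as the histidine methyltransferase of actin, changed by -0.36 (SE 0.050) in WT and -0.48 (SE 0.050) in ACAT1 KO cells. Setd5 rose by 0.52 and 0.64 and Smyd5 by 0.56 and 0.50, while Smyd2 and Smyd3, lysine methyltransferases with many targets other than histones, did not pass in either genotype.

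Of the 7 arginine methyltransferases, Prmt2, Prmt5 and Prmt6 rose and Prmt7 and Carm1 fell in both genotypes. Prmt3 passed in ACAT1 KO cells, with -0.17. Prmt6, which methylates arginine 2 of H3, rose by 0.70 and 0.69, and Prmt5, the main symmetric dimethyltransferase, by 0.36 and 0.26 on the log2 scale. Carm1, which methylates H3 and coactivators, changed by -0.35 and -0.50. In WT its fall did not pass with the term for the unstimulated libraries that stood apart. The JmjC proteins Kdm8 and Jmjd6 rose in both genotypes, by 0.52 and 0.70 in WT.

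Sequences before an annotated start of the members that moved most in WT cells are shown because these genes responded within 2 hours. Of the 3 members with the largest rise and the 3 with the largest fall, 5 had an entry in the RefSeq promoter set for GRCm38.p6, and Kdm6b is named only. The 250 bases before the start given by that set are shown, with the letters CCAAT and GGGCGG, found on either strand, in capitals. For Kdm2b the entry farthest upstream of its 4 is shown. The stretches of Kdm2b and Ezh2 lie inside the gene as drawn by the GENCODE annotation, which gave the gene coordinates.
Dot1l, chr10:80754953-80755202, plus strand: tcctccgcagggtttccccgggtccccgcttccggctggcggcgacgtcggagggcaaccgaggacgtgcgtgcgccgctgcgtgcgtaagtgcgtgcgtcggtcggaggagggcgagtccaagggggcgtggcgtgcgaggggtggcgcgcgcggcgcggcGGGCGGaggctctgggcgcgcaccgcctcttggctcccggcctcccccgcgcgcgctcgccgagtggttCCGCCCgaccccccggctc
Setdb2, chr14:59440881-59441130, minus strand: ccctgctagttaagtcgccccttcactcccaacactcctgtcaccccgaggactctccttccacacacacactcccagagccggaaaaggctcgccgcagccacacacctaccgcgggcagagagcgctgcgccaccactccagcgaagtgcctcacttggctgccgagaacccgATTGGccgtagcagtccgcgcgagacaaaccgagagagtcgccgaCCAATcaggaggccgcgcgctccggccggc
Smyd4, chr11:75348183-75348432, plus strand: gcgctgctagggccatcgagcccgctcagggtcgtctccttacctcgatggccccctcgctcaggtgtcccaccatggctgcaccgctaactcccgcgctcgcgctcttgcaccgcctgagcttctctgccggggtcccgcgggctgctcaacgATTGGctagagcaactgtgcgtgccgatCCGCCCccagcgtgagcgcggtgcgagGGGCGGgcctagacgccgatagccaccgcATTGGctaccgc
Kdm2b, chr5:122989100-122989349, minus strand: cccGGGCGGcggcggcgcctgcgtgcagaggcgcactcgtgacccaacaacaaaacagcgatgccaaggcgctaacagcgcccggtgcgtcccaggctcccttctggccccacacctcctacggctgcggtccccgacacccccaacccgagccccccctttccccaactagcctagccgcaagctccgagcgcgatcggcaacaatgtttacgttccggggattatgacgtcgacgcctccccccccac
Ezh2, chr6:47595031-47595280, minus strand: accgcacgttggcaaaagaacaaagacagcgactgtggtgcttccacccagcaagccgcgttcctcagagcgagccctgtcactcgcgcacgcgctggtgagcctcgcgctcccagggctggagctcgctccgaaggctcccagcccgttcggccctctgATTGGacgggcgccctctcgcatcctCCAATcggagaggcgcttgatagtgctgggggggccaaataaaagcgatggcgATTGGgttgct
These stretches were 63.6% to 78.4% G or C. The letters CCAAT occurred 3 times in Ezh2, 2 times each in Setdb2 and Smyd4, and were in neither Dot1l nor this Kdm2b entry, and 33.8% of all 32851 entries of the same length held them. GGGCGG occurred 2 times each in Dot1l and Smyd4 and 1 time in Kdm2b, and 32.7% of all entries held it. Of motifs of factors that LPS is known to activate, the NF-kB consensus and the AP-1 letters TGANTCA, with N for any base, were searched on both strands, and 7.25% and 6.75% of all entries held them. Neither was found in these 5 stretches. Of the 42 members with an entry, 5 held the NF-kB consensus in at least 1 entry, namely Kdm2b (in an entry not shown), Kdm5b, Prmt1, Smyd5 and Suv39h2, and 3, Kdm3a, Kdm4a and Kdm5c, the AP-1 letters, against 8.23% and 7.82% of all genes.

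Differences between genotypes were next compared in unstimulated cells. No member passed at an adjusted p of 0.05 by edgeR, where 0.742% of all 16440 genes were higher and 1.17% lower in ACAT1 KO cells. With p taken under 0.05 before adjustment, 1 member was higher and 9 lower, against 9.73% and 9.93% of all genes, and the 3 ACAT1 KO libraries lay above the 3 WT libraries for 2 members and below them for 9, against 12.5% and 13.3% of all genes. The median log2 fold change of the members was -0.06, beside 0.00 over all genes. With length and GC offsets the members' median turned to 0.0155. DESeq2 called 8 members, 1 higher and 7 lower, where it called 4.95% of all genes higher and 5.52% lower, and limma-voom called 0.

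The member with the smallest unadjusted p was Kdm5c, at 119, 128 and 107 CPM in WT and 90.7, 96.9 and 96.9 CPM in ACAT1 KO libraries (log2 fold change -0.31, 95% interval -0.50 to -0.12). Kmt2d, an enhancer H3K4 methyltransferase, had the lowest log2 fold change, -0.53 (SE 0.19, edgeR adjusted p = 0.184). It stood at 162, 134 and 94.8 CPM in WT and 82.0, 97.2 and 88.7 CPM in ACAT1 KO libraries, so that WT 3 lay among the ACAT1 KO libraries, and WT 1 and WT 2, the highest, are libraries with more counts on the opposite strand. Without those libraries and ACAT1 KO 2 its log2 fold change was -0.16, from WT 3 alone against ACAT1 KO 1 and 3. Suv39h2, a heterochromatin H3K9 methyltransferase, was the member with the highest value, at 19.7, 18.8 and 20.3 CPM in WT and 22.1, 25.6 and 28.0 CPM in ACAT1 KO libraries, which did not overlap (0.37, SE 0.098, edgeR adjusted p = 0.109). With a term for the 3 libraries that stood apart edgeR called 0 members. Leaving them out or using them alone left 1 library in an arm, so those fits say nothing about stability.

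After LPS, 15 of the 57 members were lower in ACAT1 KO than in WT cells and 0 were higher, while 9.12% of all 16483 genes tested were lower and 5.93% higher (edgeR quasi-likelihood, adjusted p under 0.05). At an unadjusted p under 0.05, 30 members were lower and 1, Ezh1, was higher, against 17.2% and 14.1% of all genes. The log2 fold change was negative for 45 of 57 members and for 8371 of all 16483 genes, with a median of -0.16 beside 0.00 over all genes. The 3 ACAT1 KO libraries lay below the 3 WT libraries for 33 members and above them for 1, against 22.2% and 15.6% of all genes. The called members were 6 of the 9 H3K4 methyltransferase genes, 3 of the 6 for H3K36 and H3K79, 2 of 6 SMYD and other SET domain genes, 2 of 5 H3K4 demethylases, 1 of 10 demethylases of H3K9 and H3K36 and 1 of 7 arginine methyltransferases. No gene for H3K9 methyltransferases, PRC2 or H3K27 demethylases passed. The 2 H3K27 demethylase genes were nonetheless lower at an unadjusted p under 0.05 by edgeR, with log2 fold changes of -0.41 and -0.26. At that level 1 of 6 H3K9 methyltransferase genes was lower, and of 4 PRC2 genes 1 was lower and 1 higher.

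**Figure D2:**
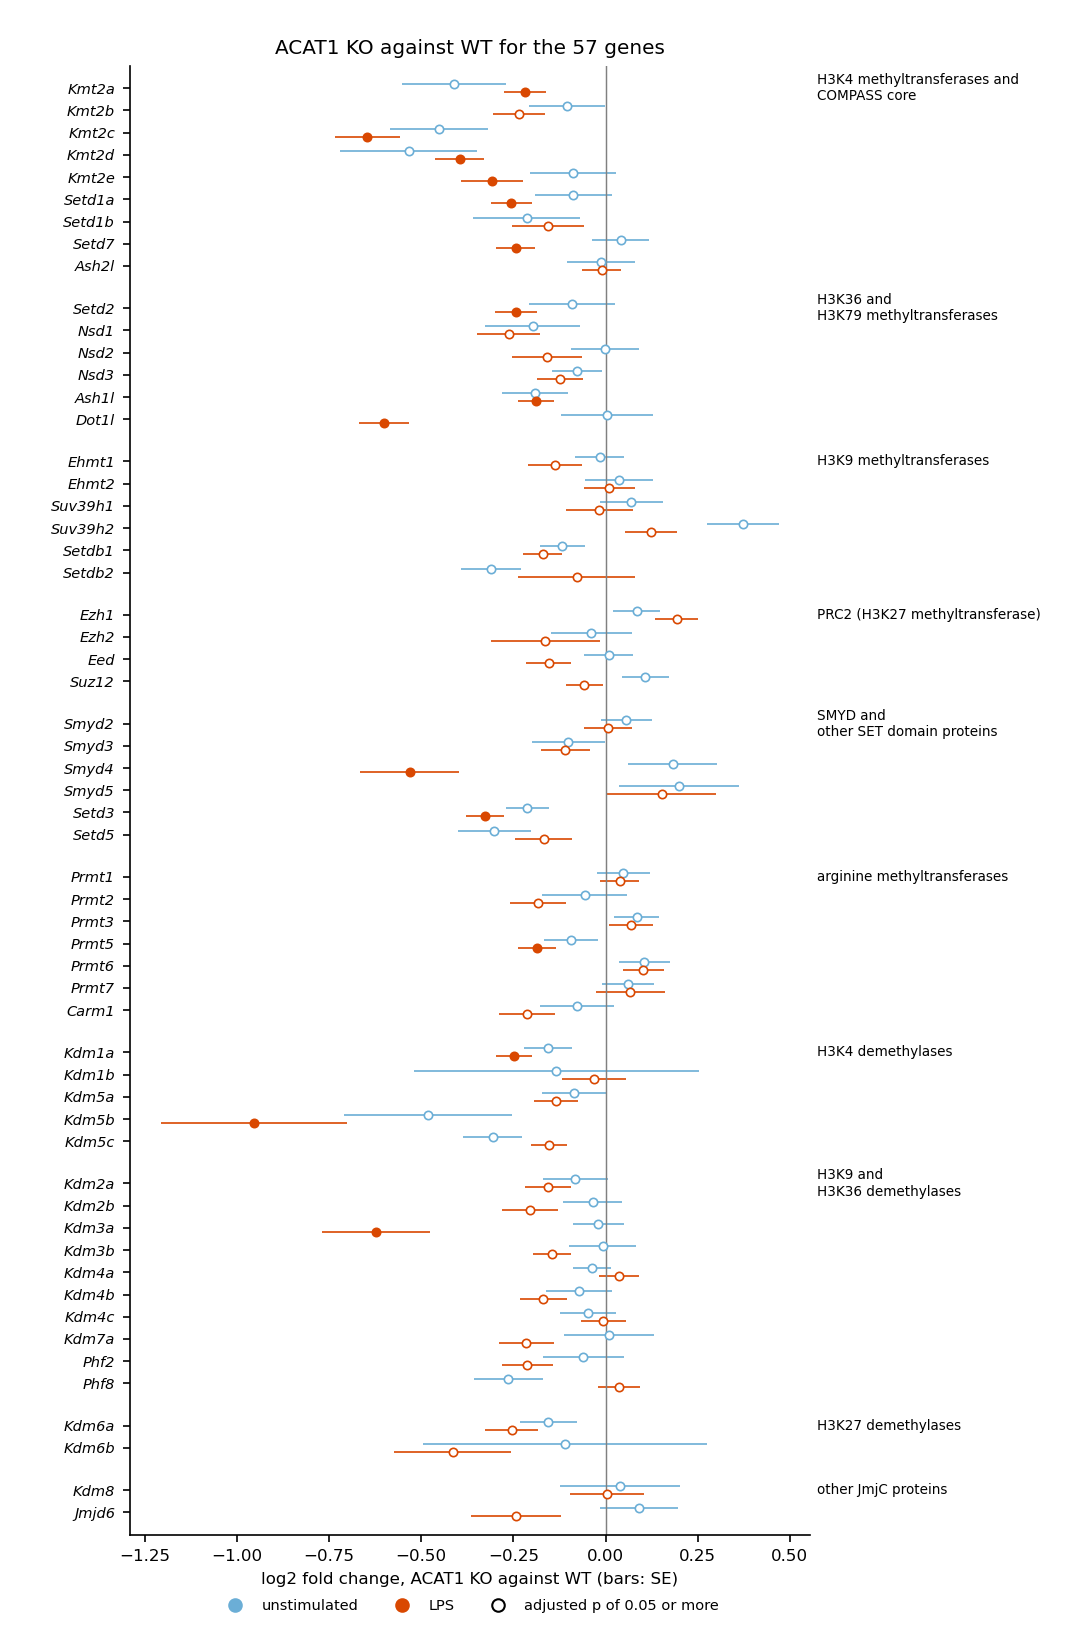
Log2 fold change of ACAT1 KO against WT cells (x axis) for each of the 57 genes (y axis, grouped by role), without stimulation and after LPS, with bars for the standard error and filled points where the edgeR adjusted p was under 0.05. All 15 filled points are from LPS-stimulated cells and lie to the left of 0.

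The smallest p was that of Dot1l, given above by library, at 138 to 163 CPM in WT and 95.5 to 101 CPM in ACAT1 KO cells after LPS (log2 fold change -0.60, SE 0.068, adjusted p = 0.0031). Without stimulation its difference was 0.00, with a 95% interval from -0.29 to 0.30. Kmt2c (ENSMUSG00000038056, chr5:25271798-25498783, minus strand), which monomethylates H3K4 at enhancers, stood at 44.6, 37.7 and 35.5 CPM in WT and 24.2, 25.6 and 24.4 CPM in ACAT1 KO cells after LPS, and at 35.5, 37.1 and 26.7 CPM against 22.7, 26.1 and 23.3 CPM without stimulation. The genotypes did not overlap in either state, though without stimulation WT 3, at 26.7 CPM, and ACAT1 KO 2, at 26.1 CPM, lay close together. WT 1 and WT 2, the highest there, and ACAT1 KO 2 are the libraries with more counts on the opposite strand. After LPS the log2 fold change of Kmt2c was -0.65 (SE 0.088, adjusted p = 0.00499). Its paralog Kmt2d (ENSMUSG00000048154, chr15:98831669-98871204, minus strand) stood at 168, 142 and 153 CPM in WT and 115, 116 and 117 CPM in ACAT1 KO cells (-0.40, SE 0.067, adjusted p = 0.00964).

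Setd3 stood at 114, 104 and 112 CPM in WT and 96.4, 93.2 and 93.5 CPM in ACAT1 KO cells without stimulation, and at 84.9, 88.3 and 84.7 CPM in WT and 65.6, 68.9 and 68.0 CPM in ACAT1 KO cells after LPS. It was lower in ACAT1 KO libraries in both states, and passed after LPS (-0.33, SE 0.051, adjusted p = 0.00751). It is the only member on chromosome 12, where the median of 584 genes tested was -0.28 after LPS and 240 of them were lower, so its difference is close to that of the chromosome. Kdm1a, with 137, 130.2 and 128 CPM in WT and 110.5, 110.5 and 107 CPM in ACAT1 KO cells after LPS, had -0.25 (SE 0.050, adjusted p = 0.0168).

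The other 10 called members were Setd1a (-0.26), Setd7 (-0.24), Setd2 (-0.24), Kdm3a (-0.62), Smyd4 (-0.53), Ash1l (-0.19), Kmt2a (-0.22), Kdm5b (-0.95), Kmt2e (-0.31) and Prmt5 (-0.19), with edgeR adjusted p from 0.0222 to 0.0477. Kmt2e is an MLL family protein with no known activity of its own, and Setd1a, a SET1 family H3K4 methyltransferase, is uncertain, since 51.9% of its exonic bases are shared with another gene on the same strand, Gm49388. Kdm3a, an H3K9 demethylase, is known to respond to hypoxia. It stood at 35.4, 35.8 and 36.5 CPM in WT and 33.3, 34.2 and 38.1 CPM in ACAT1 KO cells without stimulation, and at 69.7, 48.5 and 48.2 CPM in WT and 34.1, 33.2 and 39.1 CPM in ACAT1 KO cells after LPS. WT libraries after LPS lay above the 9 others, and WT 1 was the highest of them. It rose in WT by 0.63 (SE 0.13, adjusted p = 0.00114) and had 0.01 in ACAT1 KO cells (95% interval -0.27 to 0.29).

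The count of members called after LPS moved with single libraries and with the handling of gene length. With 1 library left out, 13 members were called without WT 1, 8 without WT 2 and without WT 3, 5 without ACAT1 KO 1 and without ACAT1 KO 3, and 4 without ACAT1 KO 2, where a group was down to 2 libraries. The count over all genes fell too, from 2481 to 2245 without WT 1, 1183 without WT 2 and 2162 without WT 3. It was 1020 without ACAT1 KO 1, 867 without ACAT1 KO 2 and 1034 without ACAT1 KO 3. Dot1l, Kmt2c, Kmt2d and Setd3 passed in all 6 of these fits. Kdm1a and Kdm3a passed in 3, Setd1a, Setd2 and Setd7 in 2, Smyd4, Kmt2a and Kmt2e in 1, and Kdm5b, Ash1l and Prmt5 in 0. Kdm5b also did not pass with robust dispersion or with length and GC offsets. Members were long genes, with a median of 6954 exonic bases against 3437 over all genes, and longer genes had lower fold changes after LPS: Spearman's rho with exonic length was -0.27 across all genes and -0.38 across the 57 members, which share the same 6 libraries and are not independent. With offsets for each library's trend on gene length and GC content, 4 members were lower (Dot1l, Kmt2c, Setd3 and Smyd4) and 1, Ezh1, was higher, while 6.54% of all genes were lower and 6.88% higher, so the share of members called lower was then near that of all genes. The median of the members was then -0.06 beside 0.02 over all genes. The part of transcript length or RNA quality in the difference was not tested further.

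**Figure D3:**
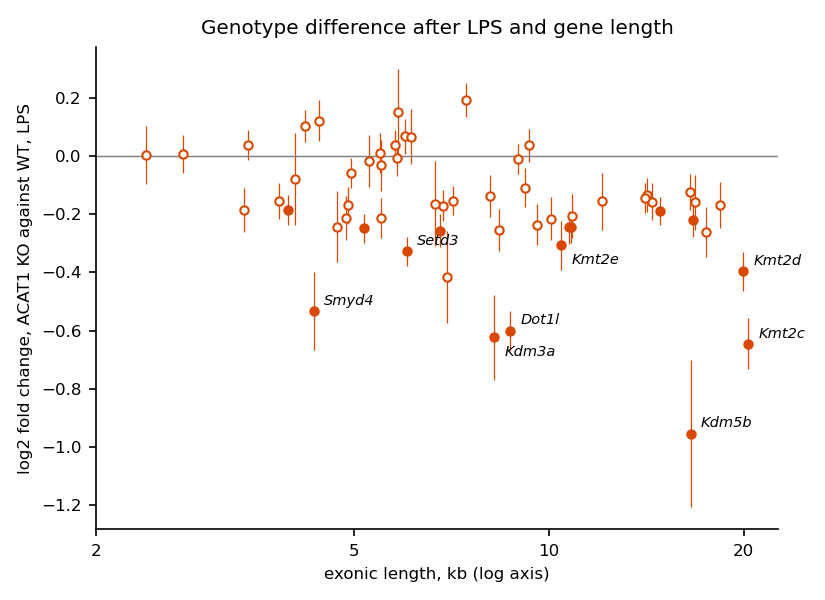
Log2 fold change of ACAT1 KO against WT cells after LPS (y axis) of each of the 57 genes against its exonic length in kb (x axis, log scale), with bars for the standard error and filled points where the edgeR adjusted p was under 0.05. The longest genes, among them Kmt2c, Kmt2d and Kdm5b, lie below 0, and so do the shorter Smyd4 and Setd3.

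Whether the genotype difference changed with LPS was tested as an interaction in the fit of 12 libraries. No member passed at an adjusted p of 0.05 by edgeR, where 0.0484% of all 16535 genes had a higher and 0.139% a lower response in ACAT1 KO cells. With p taken under 0.05 before adjustment, Phf8 was higher and 6 members were lower (Smyd4, Dot1l, Kdm3a, Setd7, Suz12 and Suv39h2), against 3.28% and 5.64% of all genes. The sign was negative for 46 of 57 members and for 9697 of all 16535 genes, and the median was -0.10 beside -0.04 over all genes. The members' median less that of all genes was -0.066. It was -0.020 with length and GC offsets, and from -0.087 (without WT LPS 3) to -0.021 (without WT unstimulated 1) with a library left out. Smyd4 had -0.73 (SE 0.18, adjusted p = 0.135), Dot1l -0.62 (SE 0.15, adjusted p = 0.136) and Kdm3a -0.62 (SE 0.18, adjusted p = 0.232) on the log2 scale by edgeR.

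With the replicate number as a block (a replicate block), which rests on an inferred pairing of the unstimulated and LPS libraries of a number, 1 member was called, Dot1l, with a lower response (-0.63, SE 0.10, adjusted p = 0.0256), where 0.907% of all genes were lower and 0.835% higher. With a term for the libraries with more counts on the opposite strand it was again Dot1l (adjusted p = 0.0409), against 0.278% of all genes lower and 0.139% higher. DESeq2 called 3 lower, Dot1l (adjusted p = 0.0121), Smyd4 (0.00813) and Kdm3a (0.0495), against 1.16% of all genes lower and 0.853% higher. limma-voom called 0.

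**Figure D4:**
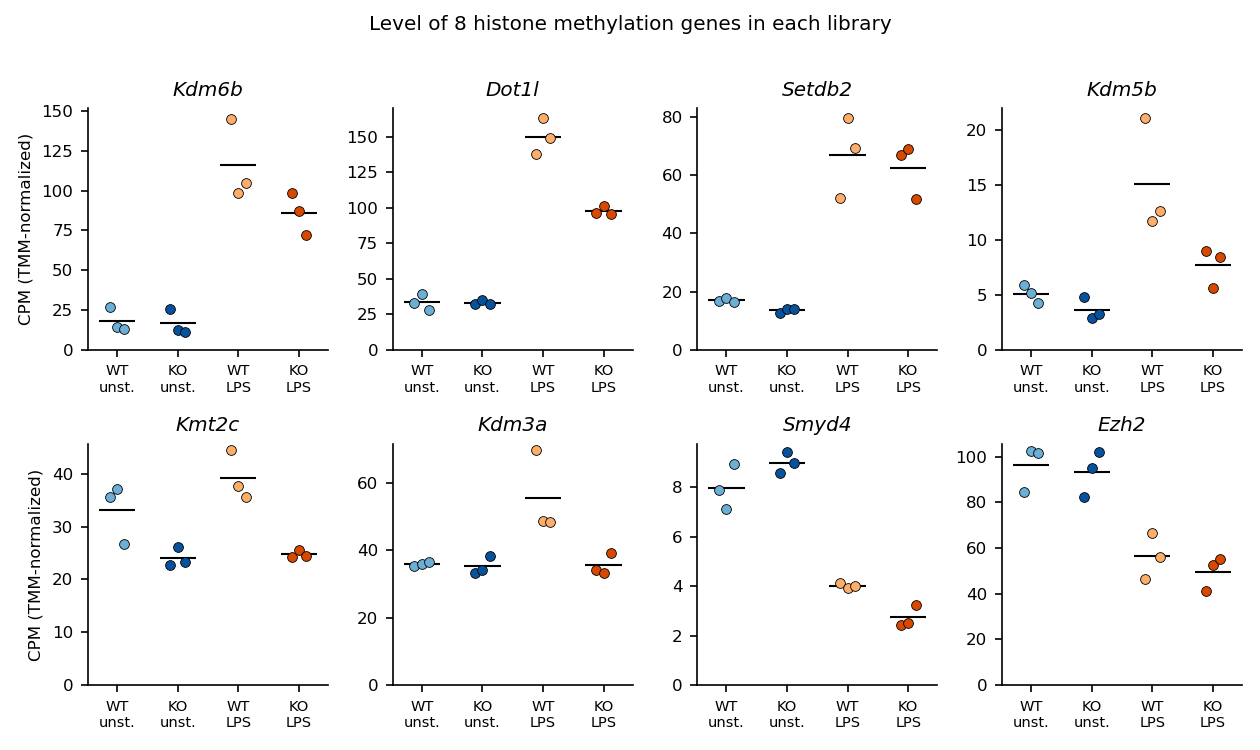
CPM (y axis, linear from 0) of 8 of the genes in each library (points) with the mean of the 3 libraries (line), by group (x axis; unst., unstimulated). Dot1l and Kdm3a overlap between genotypes without stimulation and separate after LPS, where ACAT1 KO libraries reach 101 and 39.1 CPM at most.

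Taken over the 57 genes, the median deviation of a library from the 12-library mean of each gene was -0.13 to -0.04 on the log2 scale in unstimulated WT, -0.16 in each unstimulated ACAT1 KO library, 0.17 to 0.21 in WT after LPS and -0.02 to 0.04 in ACAT1 KO after LPS. The 4 groups did not overlap. ACAT1 KO libraries lay below WT libraries in both states, and LPS libraries above unstimulated ones in both genotypes. These deviations carry no correction for gene length, and without stimulation the genotype difference fell with exonic length (Spearman's rho -0.51 across the 57 genes, -0.13 across all) and its median changed sign with the offsets, as given above.

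**Figure D5:**
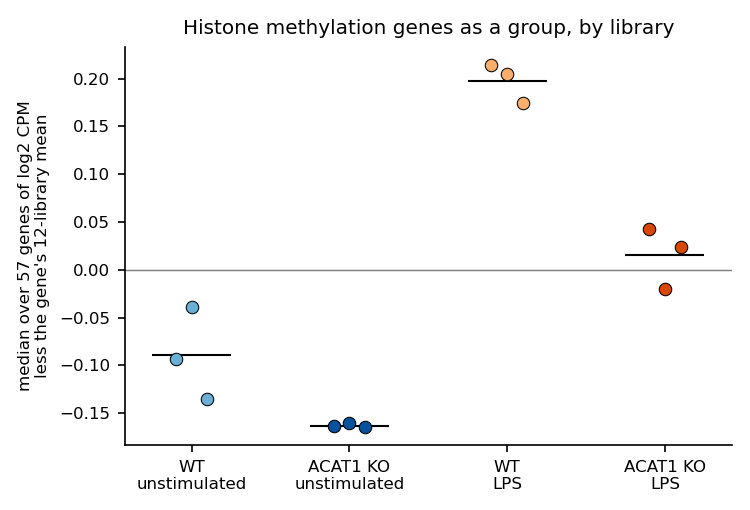
Median over the 57 genes of log2 CPM less the mean of that gene over the 12 libraries (y axis), for each library (points) by group (x axis), with lines for group means. The WT LPS libraries, at 0.17 to 0.21, lie above the ACAT1 KO LPS libraries, at -0.02 to 0.04.

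The partners and substrates of these enzymes were read from the same fits. Of 36 complex partners tested, 16 rose and 12 fell after LPS in WT, against 29.3% and 28% of all genes. In ACAT1 KO cells 13 rose and 15 fell, against 29.5% and 31.2% of all genes. The Polycomb corepressor Bcor rose by 2.33 and 2.46 and the PRC2 accessory factor Aebp2 by 1.49 and 1.52 on the log2 scale, so that this PRC2 partner rose while Ezh2 fell. Between genotypes 1 partner passed without stimulation, Phf21a (0.39), a subunit of the LSD1 complex that lies on chromosome 2. Of all genes, 0.742% were higher and 1.17% lower there. After LPS 6 were lower in ACAT1 KO cells and 0 higher, against 9.12% and 5.93% of all genes. Among them, Mllt10, a cofactor of Dot1l, had -0.50 (SE 0.060, adjusted p = 0.00332), the LSD1 cofactor Rcor1, which lies on chromosome 12, had -0.36 and its paralog Rcor3 -0.58.

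Of 14 other enzymes of these families, 6 rose and 2 fell after LPS in WT, against 29.3% and 28% of all genes. In ACAT1 KO cells 6 rose and 3 fell, against 29.5% and 31.2% of all genes. Kmt5c, an H4K20 methyltransferase, went from a mean of 36.7 CPM to 12.2 CPM in WT and from 38.8 CPM to 11.1 CPM in ACAT1 KO cells, which on the log2 scale was -1.59 and -1.81. None differed between genotypes without stimulation by edgeR at an adjusted p of 0.05, with 0 called. After LPS 2 were lower in ACAT1 KO cells, where 9.12% of all genes were lower. These were Kmt5b (-0.36), the paralog of Kmt5c, and Riox1 (-0.45), which lies on chromosome 12.

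Of 25 genes tested for the methyl donor and the co-substrates, 7 rose and 6 fell after LPS in WT, against 29.3% and 28% of all genes. In ACAT1 KO cells 7 rose and 10 fell, against 29.5% and 31.2% of all genes. Cytosolic isocitrate dehydrogenase, Idh1, which makes 2-oxoglutarate, was lower after LPS in both genotypes, at 0.499 and 0.500 times its unstimulated level. After LPS 3 were lower in ACAT1 KO cells and 0 higher, against 9.12% and 5.93% of all genes. Among the 3 were the folate enzymes Mthfd1 (-0.46), which lies on chromosome 12, and Shmt2 (-0.31). Mthfd1 was also lower without stimulation (-0.43, SE 0.058, adjusted p = 0.0333), and no gene of these 3 lists passed for the interaction by edgeR.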

How the data were processed

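The labels of the 12 RNA-seq libraries gave genotype, stimulation and a replicate number, which set the groups. Per the study's methods and the submitters' processing notes, the authors used a directional library kit, Trimmomatic 0.33 for adapters, HISAT2 for alignment (build GRCm38) and StringTie for quantification. For each state the authors deposited a table of raw, unscaled counts of genes. The step that gave whole counts and its use of strand are not given in the sources used here. The tables also hold the authors' log2 values per library (12 columns), fold changes and p-values, none of which were used here.

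Repeated entries (59 and 57) were removed, which left 17544 and 17874 genes. In each table no gene is listed that falls short of 4 counts in more than 1 library. Counts were fitted with edgeR 4.0.16 in R 4.3.3 (filterByExpr, TMM, quasi-likelihood test, two-sided, Benjamini-Hochberg over all genes tested), by genotype in the 6 libraries of each state, and over all 12 libraries for LPS responses and the interaction. SE is the log2 fold change divided by the square root of F. The LPS responses and genotype comparisons share libraries. Since it is not settled that libraries of a group are separate lines, p-values measure the spread between these libraries, which may be technical. Pairs of libraries of a group differed by more than sampling noise (33.5 to 280.1 for chi-square divided by its degrees of freedom, 12 pairs). Lengths and coordinates are from the GENCODE annotation of GRCm38, matched for 17521 and 17849 genes. Without known strand use, reads of Smyd2, Kdm3b, Prmt6 and Carm1, whose exons overlap genes of the opposite strand by over 20%, could not be fully told apart from those of their partners.

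The comparisons as reported used no pairing, and only the replicate block did. For genotype comparisons within a state, the block paired WT and ACAT1 KO libraries of the same number, which the labels do not state. For LPS responses and the interaction, it paired libraries of a genotype that bear the same number without and with LPS, which the labels do not state either. Deviations from the group means correlated from 0.14 to 0.45 for the 6 pairs of the same number and from -0.34 to 0.10 for the 12 others, over 11961 genes with a mean of at least 1 CPM. Over all 16535 genes tested the lowest of the 6 was 0.09.

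The members and lists were chosen with earlier results of these data known. Values by library are given for at most the 5 called members with the smallest p in each direction and comparison. Kdm6b, Kdm5b, Kdm3a, Ezh2, Suv39h2 and Kdm1b were added after their values were seen. Other members are given by counts and examples, and other genes by the 3 smallest p in each comparison, some of which are not reported here. Tests were tried on simulated counts. Alternatives were DESeq2 1.42.0, limma-voom (limma 3.58.1), other normalizations and filters, robust dispersion, all 12 libraries in a fit or those of a genotype, a replicate block, length and GC offsets, each library left out, and terms for, or removal of, 3 unstimulated libraries with more counts on the opposite strand. Removal of those libraries, the comparison within them and their term with the block were chosen after seeing the data.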

Additional observations from a re-analysis of the deposited data

How the results depend on the processing

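Between genotypes after LPS, 15 members were called in the comparison as reported. Length and GC offsets gave 5, with or without the replicate block, and leaving out a library gave 4 to 13. The median of the members moved from -0.16 to -0.0567 with these offsets (-0.057 with the block too) and ranged from -0.18 to -0.14 with a library left out. In unstimulated cells, where 0 were called, DESeq2 gave 8, all 12 libraries in a fit gave 6 and leaving out a library 0 to 2, the 2 without WT 3. The median, -0.0601, was 0.0155 with these offsets and 0.0192 with the block too, and -0.0737 to -0.0199 with a library left out. For the interaction, where 0 were called, DESeq2 gave 3, the replicate block 1, the block with length and GC offsets 1, the term for the libraries with more counts on the opposite strand 1 and that term with the block 3. Leaving out a library gave 0. The median, -0.10, was -0.0431 with upper quartile normalization, -0.0576 with length and GC offsets, -0.0557 with the block too, and -0.12 (without WT LPS 3) to -0.0241 (without WT unstimulated 1) with a library left out. The counts after LPS stayed within 1.5 times in both genotypes, with 41 to 46 called in WT and 39 to 46 in ACAT1 KO cells with a library left out. Their medians, 0.32 and 0.23, were 0.11 and 0.0812 with upper quartile normalization, 0.13 and 0.0482 with length and GC offsets, and 0.13 and 0.0511 with the replicate block and these offsets. In WT the median was 0.37 with the term for opposite-strand counts, and in ACAT1 KO cells 0.20 with that term and the block. With a library left out they ranged from 0.29 to 0.35 and from 0.19 to 0.25. Setdb1 in WT reversed to -0.0693 with upper quartile normalization. The replicate block gave 48 and 47 called after LPS, and apart from the interaction changed no count of members by over 1.5 times. Same-numbered WT and ACAT1 KO libraries, which the block paired for genotype comparisons within a state, correlated from -0.412 to 0.745 over genes of at least 1 CPM. Not all of these pairs were thus alike. The causes of these changes were not tested.

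Over all genes, 314 were called between genotypes in unstimulated cells, but 1721 by DESeq2, 1353 with all 12 libraries in a fit, 664 with the opposite-strand term, 522 with robust dispersion, 475 with at least 10 counts in every library, 151 with the replicate block, 136 with the block and length and GC offsets, 98 with these offsets, 66 without the 3 libraries and 7 to 522 with a library left out. After LPS, 2481 were called and 867 to 2245 with a library left out. For the interaction, 31 were called, and 333 by DESeq2, 11 by limma-voom, 288 with the block, 213 with the block and these offsets, 69 with the opposite-strand term, 457 with that term and the block, 2 without the 3 libraries and 2 to 41 with a library left out. With 3 libraries a group, small differences cannot be told from the spread between libraries.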
